A study of Homo sapiens with 4 samples.

Results

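The genes examined here build the contacts between epithelial cells: 36 genes of tight junctions, desmosomes and gap junctions, of which 13 encode claudins, 9 other tight junction proteins, 11 desmosomal proteins and 3 connexins. They were chosen because AEG-1, listed on the array as MTDH and also called LYRIC, has been described at tight junctions. Every non-control probe whose RefSeq accession belongs to one of these genes was taken. This gave 43 of 34127 probes, which read 35 of the 36 genes; TJP3 was matched to no probe by accession and is left out of what follows. Among the 35 genes read, 30 gave a signal strong enough to be tested, against 23484 genes tested in all.

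The cells were SAS, an established line from a squamous cell carcinoma of the human tongue. SB cells carried a lentiviral pLKO.1-LYRIC shRNA-B vector that silences AEG-1. SCt cells carried the pLKO.1 vector, which the paper describes as a scrambled shRNA. Both were selected with puromycin at 2 μg/ml for 14 days and grown in it afterwards, and each is a stable line made with 1 construct, so that differences between lines and effects of the knockdown cannot be told apart. On each of 4 two-colour arrays, cDNA made from 15 μg of RNA of SB cells was labelled with a red Alexa dye and that of SCt cells with a green one. The arrays are labelled as biological replicates, but nothing says whether the RNA came from separate cultures, and p-values then measure only the spread between arrays, which may be technical. As 0 arrays had the dyes exchanged, a preference of a probe for one dye and a difference between the cells cannot be told apart either. The log2 ratios given below are SB over SCt cells after background correction and loess normalization, with the SD over arrays. A gene is represented by its brightest tested probe and is called when limma's p-value, adjusted by Benjamini-Hochberg over all 28505 probes tested, is under 0.05.

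Tight junctions seal the space between neighbouring epithelial cells. Claudins and occludin form their strands in the membrane, and scaffold proteins such as ZO-1 (TJP1) tie the strands to actin. Desmosomes rivet cells together: the cadherins desmoglein (DSG) and desmocollin (DSC) bridge the gap, and plakoglobin (JUP), the plakophilins (PKP) and desmoplakin (DSP) link them to keratin filaments, an arrangement that squamous epithelium depends on. Gap junctions are channels of connexins (GJA and GJB genes) that let small molecules pass from cell to cell.

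AEG-1 itself was 9.07-fold lower in SB cells (log2 ratio −3.18 ± 0.17, SD, n = 4 arrays; limma, adjusted p = 5.19e-10). The arrays had 43118 non-control spots each, of which 84.7% to 90.3% per channel were well above background. The 8 squamous markers KRT5, KRT14, KRT6A, KRT17, TP63, CDH1, EPCAM and SFN exceeded the background clearly in SB and SCt cells alike on each array, with 0 called and a summed level of 16.99 to 17.78 in SB cells and 16.97 to 17.84 in SCt cells on the log2 scale. All 3 endothelial markers, all 4 leukocyte markers and 3 of 6 fibroblast markers also passed this background test at their brightest probe, with 0 called, whereas LUM and COL3A1 did not pass it on any array. A further probe of the leukocyte marker PTPRC passed it on 0 arrays. Summed over the tested genes of each list, at the brightest probe, the levels in SB and SCt cells were 10.33 to 10.40 and 10.24 to 10.47 (endothelial), 14.54 to 14.98 and 14.51 to 14.95 (leukocyte) and 12.21 to 13.08 and 12.31 to 13.10 (fibroblast, 3 genes). A probe well above background is therefore not taken here as proof that its gene is expressed.

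Of the 30 junction genes tested, 2 were called: CXADR rose and CLDN12 fell in SB cells, which is 6.67% of the genes, beside 3.51% of all genes tested (1.26% higher and 2.26% lower). By probe, 2 member probes were higher and 1 lower among 38, beside 3.7% of all probes (1.32% higher and 2.38% lower). When each array was centred on its median and loess was left out, 8 of the 30 were called, 5 higher and 3 lower, while calls over all probes went from 1055 (376 higher, 679 lower) to 8937 (5599 higher, 3338 lower). The median log2 ratio of the junction genes was 0.0124, beside 0.0125 over all genes, and the median size of the ratios was 0.09, beside 0.07. On single arrays their median was −0.03, 0.01, 0.00 and 0.02. The ratios kept 1 sign on all 4 arrays in 7 genes, 3 higher and 4 lower; 26.5% of all genes did so (14.1% higher and 12.3% lower). At an unadjusted p under 0.05, 10 of the 30 passed, beside 18.1% of all genes. GJA1, which passed the filter only in SCt cells, is among these and among the 4 lower genes. With the filter on both channels, 9 of 29 passed. Among the genes that were not called, the bound of a 95% confidence interval farthest from 0 was 0.40, that of DSC2. In bulk RNA, a change per cell and a change in the make-up of the culture cannot be told apart.

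**Figure D1:**
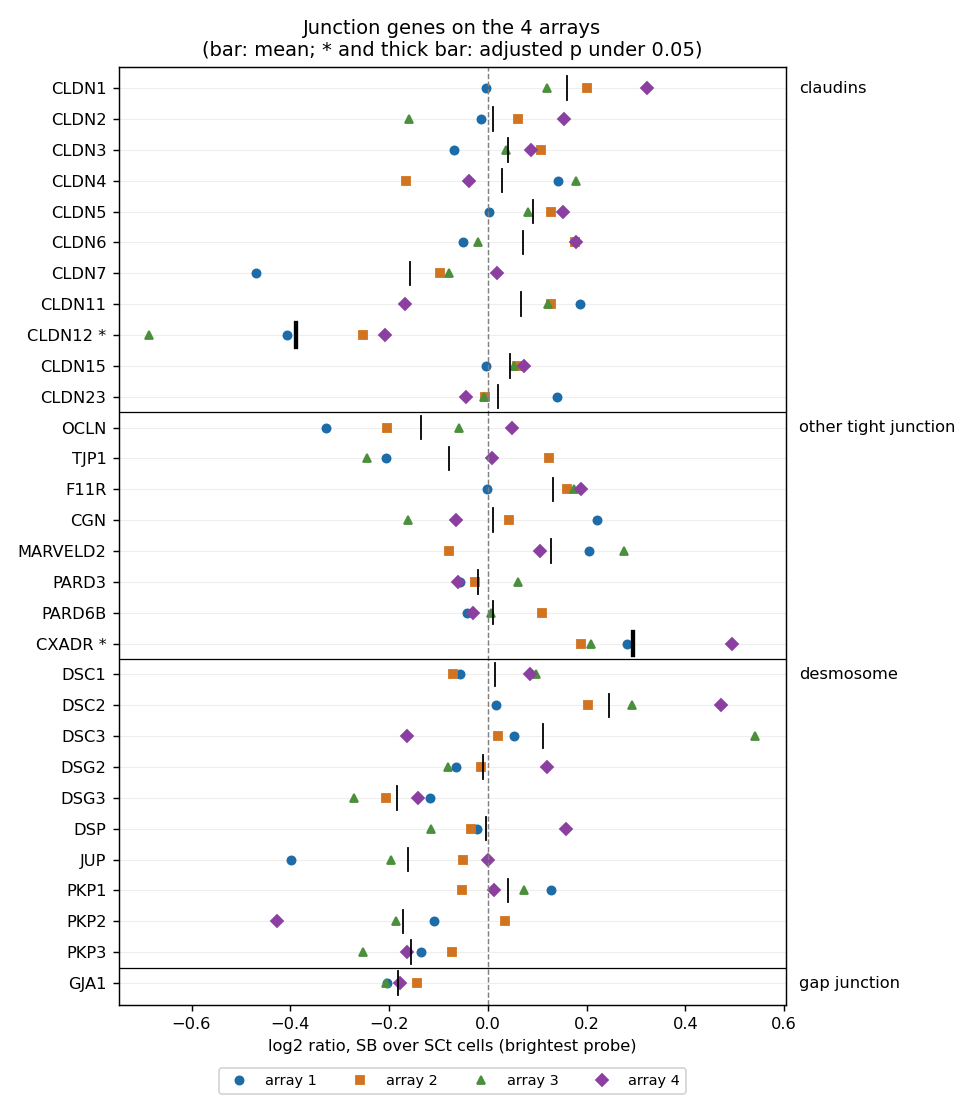
Log2 ratio of SB over SCt cells (horizontal axis) for the 30 tested junction genes (vertical axis, grouped by role), with 1 point for each of the 4 arrays and a vertical bar at the mean. CLDN12 lies below 0 and CXADR above 0 on every array; most other genes have arrays on both sides of 0.

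CXADR, the coxsackievirus and adenovirus receptor, is an adhesion protein of the immunoglobulin family that sits at tight junctions. It was read by 2 probes. The brighter probe (A_23_P57268) gave log2 ratios of 0.28, 0.19, 0.21 and 0.49 on arrays 1 to 4, and the other (A_24_P374943) gave 0.18, 0.27, 0.41 and 0.54. Both probes were above 0 on each of the same 4 arrays, and array 4 was the highest for both. The means were 0.29 ± 0.14 (SD, n = 4 arrays; a 1.23-fold rise; limma, adjusted p = 0.0277) and 0.35 ± 0.16 (a 1.28-fold rise; adjusted p = 0.0143). The raw red intensities behind the brighter probe were 1674.5, 2076.5, 2072.5 and 989, and the green ones 664, 1185.5, 1222 and 429.5, against local backgrounds of at most 47 and 30. Red was brighter over all non-control spots too, with array medians of 655 to 875 in red and 362 to 588.5 in green. The raw intensities thus show that the signal was above background, not the size of the rise. CXADR stayed above 0 under all 16 alternatives, between 0.23 and 0.38, but was called under 9 of them. Aquantile normalization repeats both its ratio and its call. The other filters and tests keep the ratio of 0.29, so its sign could not change there. Without array 1, 2 or 3 it was not called (adjusted p = 0.0769, 0.0669 and 0.121), nor with the scanner software's own ratios (adjusted p = 0.0697), the series table (adjusted p = 0.0764), normexp without an offset (adjusted p = 0.0555) or the methods' t-test (adjusted p = 0.311).

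CLDN12 encodes claudin-12, a claudin that lacks the PDZ-binding tail by which most claudins hold on to ZO-1. Its brighter probe (A_23_P157268) gave −0.41, −0.25, −0.69 and −0.21 on arrays 1 to 4, below 0 throughout. The mean was −0.39 ± 0.22 (SD, n = 4 arrays), a level 23.6% lower in SB cells (limma, adjusted p = 0.0171). Its other probe (A_23_P412515), matched to the same transcript, gave −0.36, 0.04, −0.14 and 0.31, with arrays on both sides of 0 and a mean of −0.04 ± 0.29 (adjusted p = 0.868). The brighter probe was lower than the other on all 4 arrays, by 0.05, 0.29, 0.54 and 0.52, for which the exact two-sided sign-flip test gives p = 0.125, the smallest possible with 4 arrays (0.333 after adjustment over the 8 genes with 2 tested probes). The fall of CLDN12 was thus seen at 1 of its 2 probes. With the mean over both probes it was −0.21 and not called (adjusted p = 0.176). Nor was it called with the scanner software's ratios (adjusted p = 0.0572), the series table (adjusted p = 0.0651), the methods' t-test (adjusted p = 0.337), without array 1 (adjusted p = 0.0577) or without array 3, where the log2 ratio was −0.29 (adjusted p = 0.115).

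Among the other 10 of the 11 claudins tested from the 36 genes, 9 had log2 ratios between 0.01 and 0.16 and 0 were called by limma, with CLDN1 alone at an unadjusted p under 0.05. CLDN1, a barrier-forming claudin of stratified epithelium, had the highest, with 0.00, 0.20, 0.12 and 0.32 on the 4 arrays (mean 0.16 ± 0.14, adjusted p = 0.201). It was also among the genes that depended most on the normalization, with 0.52 and a call under median centring (limma, adjusted p = 0.000318). CLDN7, which is found along the sides of epithelial cells as well as at the junction, was the 1 claudin of these 11 besides CLDN12 below 0, at −0.16 ± 0.21. Array 1 gave −0.47 for it, and the other arrays −0.10, −0.08 and 0.02. The barrier claudins CLDN3, CLDN4 and CLDN5 had 0.04 ± 0.08, 0.03 ± 0.16 and 0.09 ± 0.07. CLDN2 and CLDN15, which form ion pores, had 0.01 ± 0.13 and 0.05 ± 0.03. CLDN6 (0.07 ± 0.12), CLDN11 (0.07 ± 0.16) and CLDN23 (0.02 ± 0.08) were in the same range. CLDN8 was well above background on 0 arrays and CLDN10 on 1 array in each channel, and neither was tested.

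The promoter of CLDN12 is shown because it is the member that fell and that has an entry in the RefSeq promoter table, beside that of ELF3, a further gene that fell (see the regulators). Each line gives the 250 bases before the gene start on the gene's own strand (GRCh38.p14), chr7:90403211-90403460 on the + strand for CLDN12 and chr1:202010337-202010586 on the + strand for ELF3. Capitals mark matches, on either strand, to 4 motifs: GGGNNNNNCC (a loose NF-kB motif), TGANTCA (AP-1), CACCTG (the E-box bound by ZEB and SNAI proteins) and GGGCGG (the GC box).
CLDN12: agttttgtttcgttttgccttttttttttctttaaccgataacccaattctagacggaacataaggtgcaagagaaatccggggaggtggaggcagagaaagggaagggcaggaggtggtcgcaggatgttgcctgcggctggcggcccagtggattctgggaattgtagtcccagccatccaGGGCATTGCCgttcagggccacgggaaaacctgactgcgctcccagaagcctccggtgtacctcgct
ELF3: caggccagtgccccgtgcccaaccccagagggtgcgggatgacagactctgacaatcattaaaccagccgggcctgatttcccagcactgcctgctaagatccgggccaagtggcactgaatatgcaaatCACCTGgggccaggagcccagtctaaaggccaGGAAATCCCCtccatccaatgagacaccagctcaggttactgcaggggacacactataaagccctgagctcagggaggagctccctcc

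The CLDN12 window held 1 match to the NF-kB motif and 0 to the other 3. The ELF3 window held 1 match to the NF-kB motif and 1 to the E-box, with no overlap between them. Of the other called junction genes with an entry, the 2 windows of KLF5 held 2 and 3 matches to the NF-kB motif, 0 and 2 to the GC box and 0 to the others, and that of ILDR1 held 2 to the NF-kB motif, 1 to the E-box, 2 to the GC box and 0 to the AP-1 motif. Of 35116 promoter windows of this length in the table, 54.4% held the NF-kB motif, 6.57% the AP-1 motif, 17.5% the E-box and 42.6% the GC box. The share of G and C was 54.4% for CLDN12 and 58.4% for ELF3, beside a median of 58% over all windows. Such matches are letters only and say nothing of binding.

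The other tight junction genes showed no call besides CXADR. Occludin (OCLN), a strand protein of the tight junction, gave −0.33, −0.20, −0.06 and 0.05 at its brighter probe (mean −0.14 ± 0.16) and −0.01 ± 0.20 at the other. Tricellulin (MARVELD2), its relative at the corners where 3 cells meet, had 0.13 ± 0.15. F11R, the junctional adhesion molecule JAM-A, had 0.13 ± 0.09 at both probes (limma, adjusted p = 0.248 and 0.237). Its brighter probe was above 0 on 3 of the 4 arrays and the other on all 4. The scaffold ZO-1 (TJP1) gave −0.21, 0.12, −0.24 and 0.01, a mean of −0.08 ± 0.18 with arrays on both sides of 0. Cingulin (CGN), which links the junction to actomyosin, had 0.01 ± 0.16. The polarity proteins PARD3 and PARD6B had −0.02 ± 0.06 and 0.01 ± 0.07. At both probes F11R had an unadjusted limma p under 0.05. Under median centring F11R and MARVELD2 were called, at 0.27 and 0.20 (limma, adjusted p = 0.00871 and 0.0480). The 95% intervals of the uncalled genes in this group reached at most 0.28 from 0.

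Of the 11 desmosomal genes, 10 were tested and 0 were called by limma, although 5 had an unadjusted p under 0.05: DSC2, DSG3, JUP, PKP2 and PKP3. Desmocollin-2 (DSC2) was the highest, with 0.02, 0.20, 0.29 and 0.47 on the 4 arrays, all above 0 (mean 0.25 ± 0.19; limma, adjusted p = 0.0873). It was called in 2 alternatives, under median centring (adjusted p = 0.0298) and without array 1 (adjusted p = 0.0477). Desmoglein-3 (DSG3), the desmosomal cadherin of the lower layers of squamous epithelium and the antigen of pemphigus vulgaris, was the lowest. It gave −0.12, −0.21, −0.27 and −0.14, all below 0 (mean −0.18 ± 0.07; adjusted p = 0.0987). The plaque proteins plakophilin-3 (PKP3, −0.16 ± 0.08), plakophilin-2 (PKP2, −0.17 ± 0.19) and plakoglobin (JUP, −0.16 ± 0.18) were also below 0. PKP3 was so on all 4 arrays, whereas PKP2 was above 0 on array 2 (0.04) and lowest on array 4 (−0.43), and JUP was lowest on array 1 (−0.40). DSG2 (−0.01 ± 0.09), PKP1 (0.04 ± 0.08) and DSC1 (0.01 ± 0.09) lay near 0. DSC1, a desmocollin of the upper layers, was weak, and it moved to −0.27 and a call under median centring (adjusted p = 0.0236). DSG1, the desmoglein of the upper layers, was well above background on 0 arrays and was not tested.

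DSP and DSC3 were read by 2 probes each that gave different values. Desmoplakin (DSP), which anchors keratin filaments, had −0.02, −0.04, −0.12 and 0.16 at its brighter probe (mean 0.00 ± 0.12). The other DSP probe gave 0.02, 0.22, 0.32 and 0.35, above 0 on all arrays and above the first on each of them (mean 0.23 ± 0.15; limma, adjusted p = 0.0834; exact sign-flip p for the difference 0.125). Desmocollin-3 (DSC3), the partner of DSG3 in the lower layers, had 0.05, 0.02, 0.54 and −0.16 at the brighter probe (mean 0.11 ± 0.30). Its other probe, matched to a second transcript, was below 0 on all arrays with a mean of −0.15 ± 0.05 (adjusted p = 0.165). The brighter DSC3 probe thus owed most of its mean to array 3, which was not raised at the other probe. The probes of PKP1 (0.04 and 0.01), PARD3 (−0.02 and −0.12) and OCLN differed by at most 0.13 in their means, and none of the 8 differences was past the threshold in the exact test, whose smallest p of 0.125 cannot reach it.

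**Figure D2:**
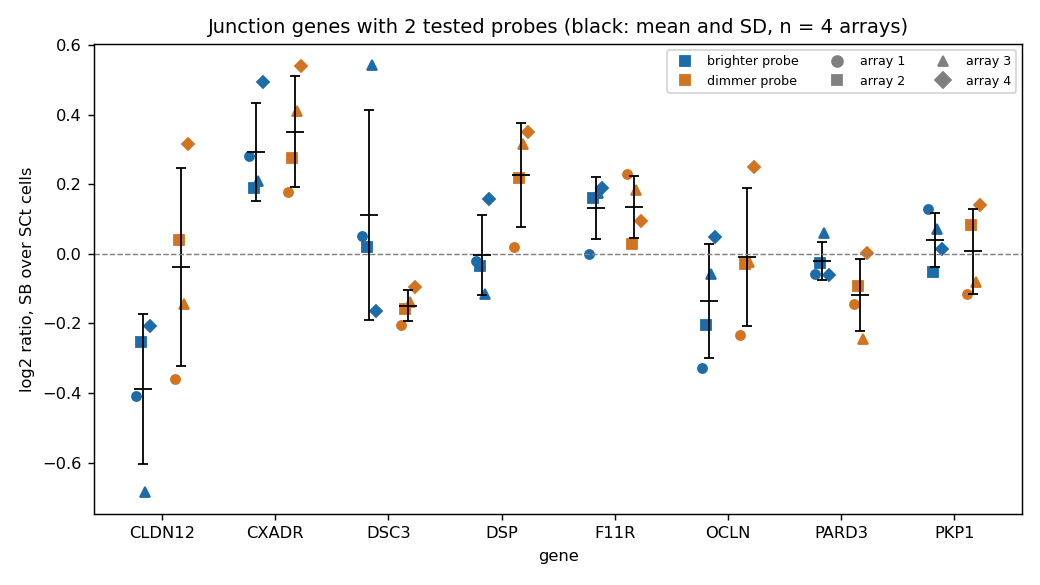
Log2 ratio of SB over SCt cells (vertical axis) for the 8 junction genes with 2 tested probes (horizontal axis), the brighter probe in blue and the dimmer in orange, with 1 symbol per array and black bars for mean and SD (n = 4 arrays). CXADR lies above 0 at both probes, whereas CLDN12, DSP, DSC3 and F11R have all 4 arrays on 1 side of 0 at 1 probe only.

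Of the 3 connexins, connexin 43 (GJA1), the most widespread connexin of the body, was the only one tested. It gave −0.20, −0.14, −0.21 and −0.18 on the 4 arrays, with the smallest SD among the tested members (mean −0.18 ± 0.03; limma, adjusted p = 0.0895). Its signal was weak, well above background on 3 arrays in SB cells and on 4 in SCt cells, and the offset of 50 in the background correction makes the ratios of weak spots smaller. Without the offset its log2 ratio was −0.39 (limma, adjusted p = 0.0134), with no background correction −0.26 (adjusted p = 0.0226), by the scanner software's ratios −0.55 (adjusted p = 0.0461), by the series table −0.55 (adjusted p = 0.0547) and under median centring −0.50 (adjusted p = 0.000866). The direction was the same under these treatments of background and dye, while the size and the call differed. GJA1 passed the filter only through the SCt channel, where it was brighter. Its direction is therefore not taken as support. GJB2 (connexin 26) was well above background on 2 arrays in SB cells and on 0 in SCt cells and was not tested. Its log2 ratios of 0.01, 0.12, 0.02 and 0.11 come from signals near background and set no minimum for a difference. GJB6 (connexin 30) was so on 1 array in each channel and was not tested.

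**Figure D3:**
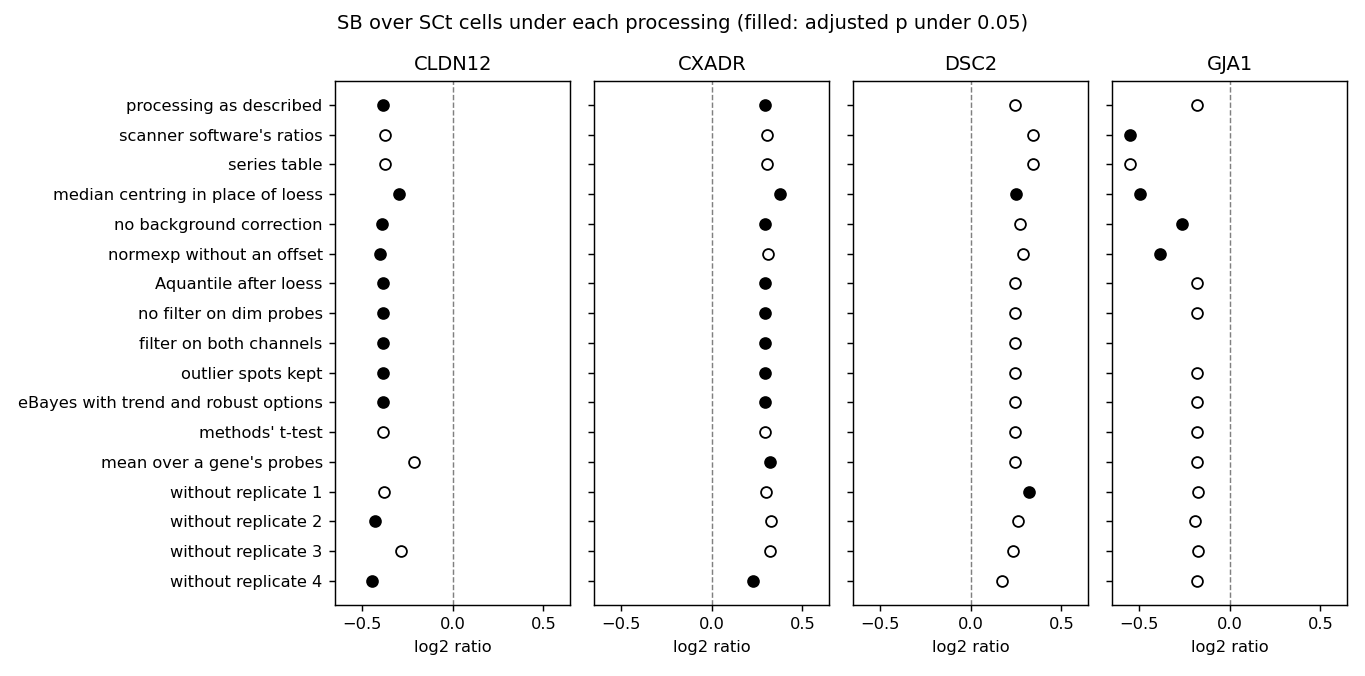
Log2 ratio of SB over SCt cells (horizontal axes) for CLDN12, CXADR, DSC2 and GJA1 under each processing (vertical axis), filled where the adjusted p was under 0.05. All values of a gene lie on 1 side of 0, though Aquantile, the filters and the tests leave a ratio as it was. CLDN12 was called in 11 of 17 settings, CXADR in 10 of 17, DSC2 in 2 of 17 and GJA1 in 4 of 16.

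The wider junction machinery was taken from 5 further lists, with 91 genes in all, of which 89 were matched and 82 tested. Of these, 4 were called: ILDR1 rose, and GJB5, ELF3 and KLF5 fell (4.88%, beside 3.51% of all genes). Their median log2 ratio was −0.0028. By list, 1 of 28 further tight junction genes, 0 of 6 further desmosomal genes, 1 of 14 further connexins and pannexins, 0 of 15 adherens junction genes and 2 of 19 regulators were called. Under median centring 21 of the 82 were called, 17 higher and 4 lower.

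GJB5, a connexin of stratified epithelium, gave −0.50, −0.24, −0.66 and −0.26, all below 0 (mean −0.42 ± 0.20; limma, adjusted p = 0.0107). It was called under 14 of 16 alternatives, all but the methods' t-test (adjusted p = 0.317) and the data without array 3 (−0.33; adjusted p = 0.105). ELF3, an epithelial ETS factor, gave −0.36, −0.58 and −0.31 on arrays 1 to 3 and had no value on array 4, where its spot was an outlier (mean −0.42 ± 0.15, n = 3 arrays; adjusted p = 0.0124). With the outlier spot kept it was −0.33 (adjusted p = 0.0457), and under median centring −0.16 (adjusted p = 0.168). ELF3 was called under 11 of 16 alternatives. Those without a call included the series table (adjusted p = 0.182) and the data without array 2 or 3 (adjusted p = 0.114 and 0.0850). KLF5, a zinc-finger factor of proliferating epithelium, gave −0.35, −0.31, −0.43 and −0.06 (mean −0.29 ± 0.16; adjusted p = 0.0378). It was called under 8 of 16 alternatives; without array 1, 2 or 3 its adjusted p was 0.117, 0.143 and 0.229, and under median centring the log2 ratio was −0.13 (adjusted p = 0.149).

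ILDR1, an angulin of tricellular contacts, gave 0.34, 0.33, 0.33 and 0.43, all above 0 (mean 0.36 ± 0.05; limma, adjusted p = 0.00465). The probes of ILDR1 and CDH1 have 10 spots per array, which were averaged, whereas those of GJB5, KLF5 and CXADR have 1. Their SDs are therefore not directly comparable. ILDR1 was called under 13 of 16 alternatives. Its spots were bright, with red intensities of 100942 to 118005. The ILDR1 value moved with the normalization, to 0.25 by the scanner software's ratios (adjusted p = 0.0730) and to 0.76 under median centring (adjusted p = 1.90e-05). The part of signal strength in this result was not tested. In the adherens junction, E-cadherin (CDH1) had 0.10, 0.10, 0.08 and 0.12 (mean 0.10 ± 0.02, above 0 on all arrays; adjusted p = 0.349). β-catenin (CTNNB1) gave −0.29, −0.03, 0.50 and 0.19 at its brighter probe (mean 0.09 ± 0.33) and −0.06 ± 0.14 at the other. p120-catenin (CTNND1), which steadies cadherins at the membrane, had 0.07 ± 0.17 at its brighter probe and −0.18 ± 0.08 at the other, where all arrays were below 0 (adjusted p = 0.106). Under median centring all 3 were called and higher, CDH1 at 0.18, CTNNB1 at 0.32 and CTNND1 at 0.25 (limma, adjusted p = 0.0424, 0.0303 and 0.0191).

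**Figure D4:**
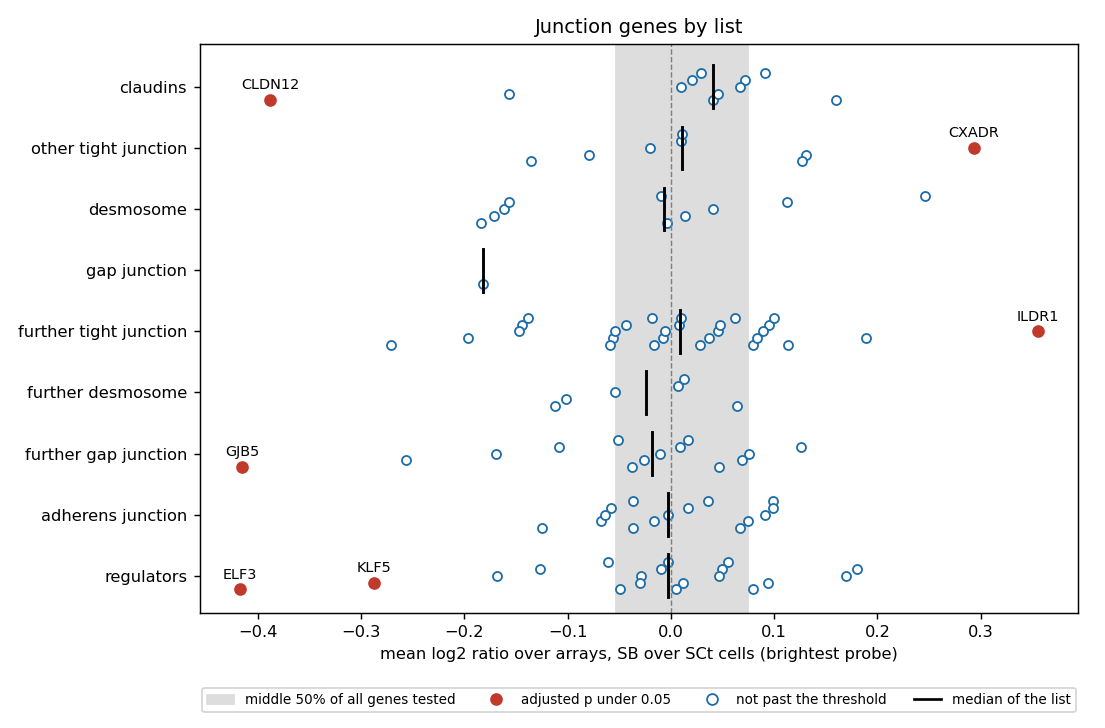
Mean log2 ratio of SB over SCt cells (horizontal axis) of each tested junction gene, by list (vertical axis), with red points for an adjusted p under 0.05, a black bar at each list's median and a grey band from the lower to the upper quartile of all genes tested (−0.05 to 0.07). The medians of all lists but the single tested connexin of the members lie within the band.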

How the data were processed

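Each array's file, as the authors deposited it, holds the output of Agilent Feature Extraction 10.5.1.1: the median intensity of every spot and of its local background in both channels on a linear scale, not normalized, flags for spots well above background or outlying, and the software's log10 ratio of red over green after its own background subtraction and dye normalization. The authors also deposited a series table on a log2 scale; its column medians were −0.0165 to 0.0220, and 93.0% to 95.9% of its values lay within 0.01 of the software's ratios averaged per probe, so that scale and direction follow from the scanner files.

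Background correction used normexp (offset 50) in limma 3.58.1 under R 4.3.3. Then 1377 control spots per array were removed, 814 to 1168 outlier spots per array were left out (0 spots were saturated), and log2 ratios were normalized by loess within arrays. Spots of a probe were averaged. Kept were probes that exceeded the background, by the software's flag, in 1 and the same channel on each of the 4 arrays and had at least 2 values (28505), and their mean was tested against 0 with lmFit and eBayes. Levels per channel were taken after loess and Aquantile normalization and are open to dye bias. Accessions were named through RefSeq (GRCh38.p14), which matched 24826 of 34127 probes; 9301 kept the file's identifier. The number of arrays limits the precision. All arrays lay on 1 slide and in 1 scan, so no block could be fitted. The steps were tested on simulated arrays, with planted ratios larger than those of the called junction genes. The simulated dye effect depended on intensity alone, so a dye preference of single probes was not covered. The members, further gene lists, tests and alternatives were chosen with earlier results of these data known. Genes given in full are those called at any probe, those whose probes differ, MTDH, CDH1, CTNNB1 and CTNND1 (1 further gene of this rule is not reported here); the others of the 36 are given by mean and SD. The alternatives were other ratios, backgrounds, normalizations, filters, tests and probe rules and each array left out.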

Additional observations from a re-analysis of the deposited data

Results flagged for a closer look

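Among the 37 named genes measured on every array, 2 had 1 array far from the other 3, where chance marks about 5% of such groups. For F11R (mean log2 ratio 0.13), array 1 was at 0.00 while the others lay from 0.16 to 0.19, so that the gap took up 0.849 of the spread from lowest to highest. For ILDR1 (mean log2 ratio 0.36), array 4 was at 0.43 and the others at 0.33 to 0.34, with a gap of 0.837 of that spread. The reason was not tested for either gene.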

How the results depend on the processing

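Calls over all probes (1055) were 698 with the series table, 8937 under median centring, 0 with the methods' t-test (3936 at an unadjusted p under 0.05) and 204 to 1991 with 1 array left out (204 without array 3, 431 without array 2, 640 without array 1, 1991 without array 4). The count of called members, 2 (CXADR and CLDN12), was 1 with the software's ratios (GJA1, with CXADR and CLDN12 lost), 0 with the series table (7 at an unadjusted p), 8 under median centring (CXADR and CLDN12 among them), 0 with the t-test (5 at an unadjusted p), 1 with the mean over probes (CXADR) and 0 to 2 with 1 array left out (0 without array 3, with 6 at an unadjusted p, 1 without array 1, which was DSC2, and 1 without array 2, which was CLDN12). The count of called further junction genes, 4, was 2, 1, 21 and 0 under the first 4 of these (9 at an unadjusted p with the t-test) and 1 to 7 with 1 array left out (1 without array 3, 2 without array 2, 7 without array 4). The called members also changed with the background. With normexp without an offset, 2 were called, both lower (CLDN12 and GJA1, with CXADR lost). With no background correction 3 were called, CXADR higher, CLDN12 and GJA1 lower. MTDH stayed at −3.18 with the t-test but was not called (adjusted p = 0.143). The cause of these changes was not tested.

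Some of the alternatives could not change a sign. Aquantile normalization leaves ratios and calls as they were, and the filters and tests act on unchanged ratios. The series table repeats the software's ratios for most probes. The values kept under these settings were thus in part fixed in advance or counted again. Of 607 values of 38 named genes under 16 alternatives, 532 kept sign and side of the threshold, 12 gained and 32 lost a call with their sign kept, and 31 changed sign, all in genes not called at first, of which 1 also gained a call (DSC1 under median centring). Under median centring these were CLDN6 (−0.12), TJP1 (0.0155), PARD3 (0.12), DSC1 (−0.27), DSG2 (0.17), DSP (0.16) and PKP3 (0.0015); with the mean over probes DSC3 (−0.0182), DSP (0.11) and CTNND1 (−0.0576); with the software's ratios and the series table DSP (0.0287 each); and with no background correction CGN (−0.0065). With 1 array left out, signs changed for CLDN2 (−0.0376 to 0.0666), CLDN4 (−0.0200 to 0.0942), CLDN23 (−0.0195 to 0.0420), CGN (−0.0610 to 0.0666), PARD6B (−0.0216 to 0.0287), DSC1 (−0.0141 to 0.0418), DSC3 (−0.0307 to 0.20), DSG2 (−0.0531 to 0.0138), DSP (−0.0576 to 0.0339), CTNNB1 (−0.0447 to 0.22) and CTNND1 (−0.0138 to 0.11). Each array pairs the 2 cell lines, so the test of its ratios against 0 is already a paired one. The labels give 1 group of ratios and no further pairing. The mean over probes has no count over all probes, and GJA1 had no value with the filter on both channels.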
